A study of Mus musculus with 10 samples.

Results

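Cytosolic ribosomal proteins are the protein subunits of the ribosomes that translate nuclear-encoded mRNA. Their genes were taken by symbol from the platform annotation, as every *Rps* or *Rpl* gene with a number, the stalk proteins *Rplp0* to *Rplp2* and *Rpsa*. This gave 64 genes, each with 1 probe set, of 19505 named genes on the array. Of them, 24 belong to the small subunit, 38 to the large subunit and 2, *Rplp0* and *Rplp1*, to the stalk. Some other ribosomal protein genes, among them *Rplp2*, *Rpl10* and *Rps27*, carry no probe set under these symbols in the annotation used and were not analysed here.

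Gene expression was measured with Affymetrix Clariom S mouse arrays in whole GTN muscle (m. gastrocnemius) of male mice on a C57BL/6N background at postnatal day 60. Controls were littermates where possible. The 5 ctrl mice were *Txnrd2* fl/fl and the 5 mTKO mice were *Txnrd2* fl/fl; *ACTA1*-Cre +/Cre, so that both groups carried floxed alleles of *Txnrd2*, the gene of mitochondrial thioredoxin reductase. *ACTA1* drives Cre in differentiated myofibers and not in the other cells of the muscle, and since the controls lacked Cre, the deletion and the presence of Cre cannot be told apart. Each array held 1 mouse, and all values are log2 signals. *Txnrd2* itself averaged 8.74 ± 0.23 in the ctrl arrays and 7.74 ± 0.21 in the mTKO arrays (mean ± SD, n = 5 each). Its genotypes did not overlap (exact permutation test, two-sided, p = 0.00794, the lowest value possible with 5 against 5), and limma gave an adjusted p of 0.118. *Acta1*, the actin gene that defines skeletal myofibers, had 19.71 to 19.90 over the 10 arrays. In whole muscle, fewer cells of a type and less RNA per cell cannot be told apart.

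The small subunit of the ribosome holds the mRNA and reads its codons, and the large subunit joins the amino acids and lets the new protein out through a tunnel. The stalk, a mobile arm of the large subunit, recruits elongation factors. Most of the mRNAs of these proteins begin with an uninterrupted run of pyrimidines, the 5′ terminal oligopyrimidine (TOP) motif, through which mTOR and LARP1 control their translation together. In muscle, ribosome number sets how much protein a fiber can make, and striated muscle replaces the general large subunit protein of *Rpl3* by a form of its own, encoded by *Rpl3l*.

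The pyrimidine run lies at the transcription start of the gene. The windows shown are those of the 3 members with the smallest p, of other members described further on, and of the muscle form *Rpl3l*. Each gives 30 bases before and 20 bases from the first start that RefSeq lists (GRCm38.p6), 5′ to 3′ on the strand of the gene, and capitals mark a run of at least 8 pyrimidines that reaches within 10 bases of the start.
*Rps9* (chr7:3704011-3704060, plus strand): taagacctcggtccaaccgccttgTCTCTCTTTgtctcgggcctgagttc
*Rps19* (chr7:24884562-24884611, plus strand): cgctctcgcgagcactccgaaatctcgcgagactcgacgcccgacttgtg
*Rps21* (chr2:180257349-180257398, plus strand): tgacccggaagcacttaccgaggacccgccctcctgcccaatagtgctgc
*Rps6* (chr4:86857348-86857397, minus strand): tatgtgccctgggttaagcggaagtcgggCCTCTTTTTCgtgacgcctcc
*Rpl39* (chrX:37085203-37085252, minus strand): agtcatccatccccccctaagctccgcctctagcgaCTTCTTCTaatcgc
*Rpl22l1* (chr3:28805478-28805527, plus strand): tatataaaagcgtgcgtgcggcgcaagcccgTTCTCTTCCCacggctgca
*Rpl4* (chr9:64173357-64173406, plus strand): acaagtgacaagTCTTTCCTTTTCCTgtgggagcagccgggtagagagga
*Rpl28* (chr7:4792935-4792984, plus strand): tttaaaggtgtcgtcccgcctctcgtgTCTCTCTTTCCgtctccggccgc
*Rpl3l* (chr17:24727796-24727845, plus strand): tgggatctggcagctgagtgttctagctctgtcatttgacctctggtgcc

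A RefSeq start was listed for 51 of the 64 members. Such a run was present at 20 of the 51 starts (39.2%), against 13.3% of the 17491 protein-coding genes with a listed start. Over the whole promoter of 300 bases (250 before and 50 from the start, both strands), CCGGAAG, a core that ETS factors bind, was found in 21 of 51 members (41.2%) and in 11.9% of protein-coding promoters. The E-box CACGTG, which Myc can bind, was found in 3 members (5.88%, against 7.9%), and AAGATGGC, the core of the YY1 motif, also in 3 (5.88%, against 3.22%). CCGGAAG and AAGATGGC share the letters AAG, so that a stretch can hold both, and a match is a string in this window only. Among the windows printed, *Rps9* carries a run of 9 pyrimidines, *Rpl4* one of 14 and *Rps6* one of 10, while *Rps19*, *Rps21* and *Rpl3l* have none of 8 or more. Their longest runs that reach within 10 bases of the start are of 4, 7 and 5.

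Ribosomal protein mRNAs were among the brightest probe sets of the muscle. Their mean log2 signal over the 10 arrays ran from 5.05 to 17.48 with a median of 13.22, where the median of all 22206 probe sets was 6.07. The median member stood at percentile 95.1 of all probe sets, and 50 of 64 members lay above the 90th. A signal depends on the probes as well as on the RNA, so the order of 2 genes by signal is not an order of transcript number. *Rps23*, which encodes a protein of the decoding centre, had the highest mean at 17.48, followed by the stalk gene *Rplp1* at 17.14, *Rpl4* at 16.77 and *Rpl21* at 16.32. At the other end stood *Rpl39l* at 5.05, *Rps4l* at 6.18, *Rpl10l* at 7.08 and *Rpl27* at 8.70. The first 3 of these are copies of other ribosomal protein genes, and *Rpl10l* and *Rpl39l* are known from the testis. Replicates varied in these genes about as in the probe sets with a mean signal above 10, which were not matched to the members in brightness. The median SD within a genotype was 0.23 over the members and 0.22 over the 4103 probe sets with a mean signal above 10, and *Rpl36* had the largest of the members at 0.44.

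No ribosomal protein gene passed the adjusted threshold between genotypes, while most had a slightly higher mean in mTKO. Of 64 members, 0 had an adjusted p under 0.05 from limma, against 0.0045% of all probe sets, which is 1 of 22206 (*Mthfd2*, named after its values were seen). At an unadjusted p under 0.05, 3 were higher in mTKO (3.1% of all probe sets) and 0 were lower (3.26% of all probe sets). In 0 of 64 members did every mTKO array lie above every ctrl array (0.495% of all probe sets), and in 0 did every mTKO array lie below (0.527%). The log2 difference (mTKO minus ctrl) was positive in 51 of 64 members (79.7%), against 49.8% of all probe sets. Its median was 0.105, with members from -0.18 to 0.47, where the median of all named genes was 0.00.

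**Figure D1:**
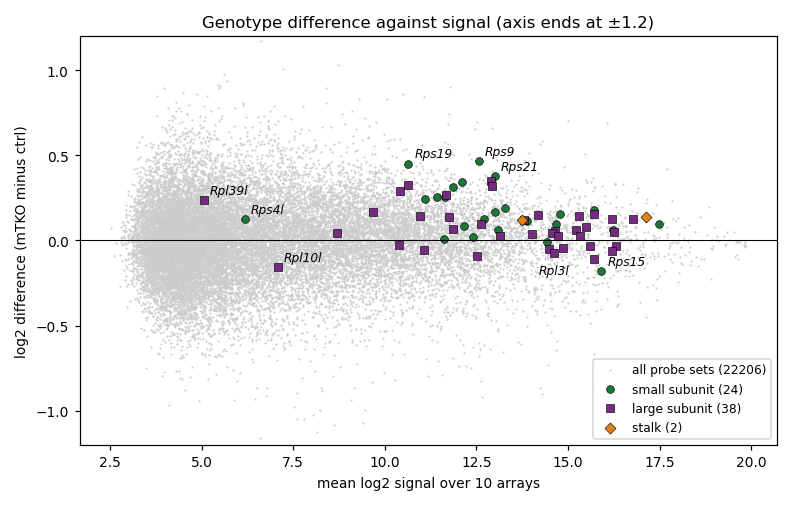
Log2 difference (mTKO minus ctrl, vertical axis) against the mean log2 signal over 10 arrays (horizontal axis) for all 22206 probe sets in grey and the 24 small subunit, 38 large subunit and 2 stalk genes in colour. The members lie on the bright side, 51 of 64 are above the line at 0, and their differences run from -0.18 to 0.47.

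The small subunit held the members with the largest differences. Of its 24 genes, 22 had a higher mean in mTKO than in ctrl, the median log2 difference was 0.14, and all 3 members past the unadjusted threshold belong to it. *Rps9* encodes a protein at the entry of the mRNA channel. Its log2 signal was 12.29, 12.62, 12.29, 12.14 and 12.33 in ctrl replicates 1 to 5 and 12.81, 13.17, 12.50, 12.65 and 12.87 in mTKO replicates 1 to 5. All mTKO arrays lay above the ctrl mean, and only mTKO replicate 3 fell below the highest ctrl array. The mTKO mean was 0.47 higher on the log2 scale, with a standard error of 0.16 and a fold change of 1.38 (limma adjusted p = 0.726).

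*Rps19*, whose protein is needed to mature the rRNA of the small subunit and is mutated in human Diamond-Blackfan anaemia, had a dimmer probe set. Its ctrl arrays had 10.22, 10.41, 10.72, 10.62 and 10.12, and its mTKO arrays 11.05, 11.02, 10.36, 10.80 and 11.12. Here mTKO replicate 3 lay below the ctrl mean, and the other mTKO arrays lay above every ctrl array. This amounted to 0.45 on the log2 scale and a fold change of 1.37 (limma adjusted p = 0.768, standard error 0.18). *Rps21* encodes a small protein of the platform side of this subunit. It had 12.75, 13.25, 12.78, 12.62 and 12.66 in ctrl and 13.11, 13.45, 12.94, 13.09 and 13.35 in mTKO. The ctrl and mTKO arrays overlapped because of ctrl replicate 2, and the log2 difference was 0.38 (limma adjusted p = 0.783, standard error 0.17). When mTKO replicate 2 was left out, 1 of 24 small subunit genes, *Rps9*, had an unadjusted p under 0.05. In the main fit 3.1% of all probe sets were higher and 3.26% lower at this threshold. The share without that array is not given here, so this count is not read as a result about the members.

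*Rpsa*, which encodes the small subunit protein also known as a laminin receptor, varied widely in both groups. It ran from 11.41 to 12.49 in ctrl and from 11.93 to 12.67 in mTKO, with a log2 difference of 0.35 (limma adjusted p = 0.840, standard error 0.21). *Rps6*, the target of the S6 kinases downstream of mTOR, was among the steadiest members. Its ctrl arrays had 16.22, 16.11, 16.26, 16.19 and 16.23 and its mTKO arrays 16.30, 16.45, 16.09, 16.24 and 16.23. The log2 difference of 0.06 had a 95% interval from -0.23 to 0.35. *Rps15*, a protein of the head of the subunit, had the lowest difference of all 64 members at -0.18 (95% interval from -0.52 to 0.17), with 16.00, 15.84, 16.18, 16.16 and 15.80 in ctrl and 16.03, 16.10, 15.76, 15.46 and 15.74 in mTKO. The groups overlapped for each of these genes. *Rps23*, the brightest member, had a log2 difference of 0.10, and *Rps4x*, encoded on the X chromosome, one of 0.17.

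In the large subunit 27 of 38 genes were on the positive side, and the median log2 difference was 0.06. *Rpl39* encodes a small protein that lines the exit tunnel and had the largest difference of this subunit. It had 12.65, 12.81, 12.40, 12.99 and 12.70 in ctrl and 13.14, 13.47, 12.45, 12.89 and 13.36 in mTKO, which is 0.35 higher in mTKO (limma adjusted p = 0.832, standard error 0.20). Again mTKO replicate 3 lay below the ctrl mean. *Rpl5* and *Rpl11*, whose proteins bind 5S rRNA and can inhibit Mdm2 when they are not in ribosomes, had log2 differences of 0.14 and 0.15. For *Rpl38*, which mouse embryos need for the translation of some Hox mRNAs, it was 0.10.

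*Rpl28* and *Rpl36* were among the most variable members and turned on single arrays. *Rpl28* had 14.98, 14.56, 14.49, 14.51 and 13.94 in ctrl and 14.59, 14.49, 14.67, 13.75 and 14.72 in mTKO. *Rpl36* had 10.67, 10.36, 10.34, 10.73 and 9.88 in ctrl and 10.94, 10.63, 10.44, 9.52 and 10.32 in mTKO. In both genes ctrl replicate 5 was the lowest of its group and mTKO replicate 4 the lowest of all arrays, and the log2 differences were -0.05 and -0.03. *Rpl35a*, also among the most variable, had 0.14, *Rpl27* had 0.04 and *Rpl4* 0.13. On the lower side, *Rpl31* and *Rpl29* had log2 differences of -0.11 and -0.09, *Rpl15* -0.06 and *Rpl21* -0.03, none past the unadjusted threshold. The stalk genes *Rplp0* and *Rplp1* had log2 differences of 0.12 and 0.14. *Rplp1* stood between 16.93 and 17.17 in all arrays but mTKO replicate 2, where it had 17.65.

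**Figure D2:**
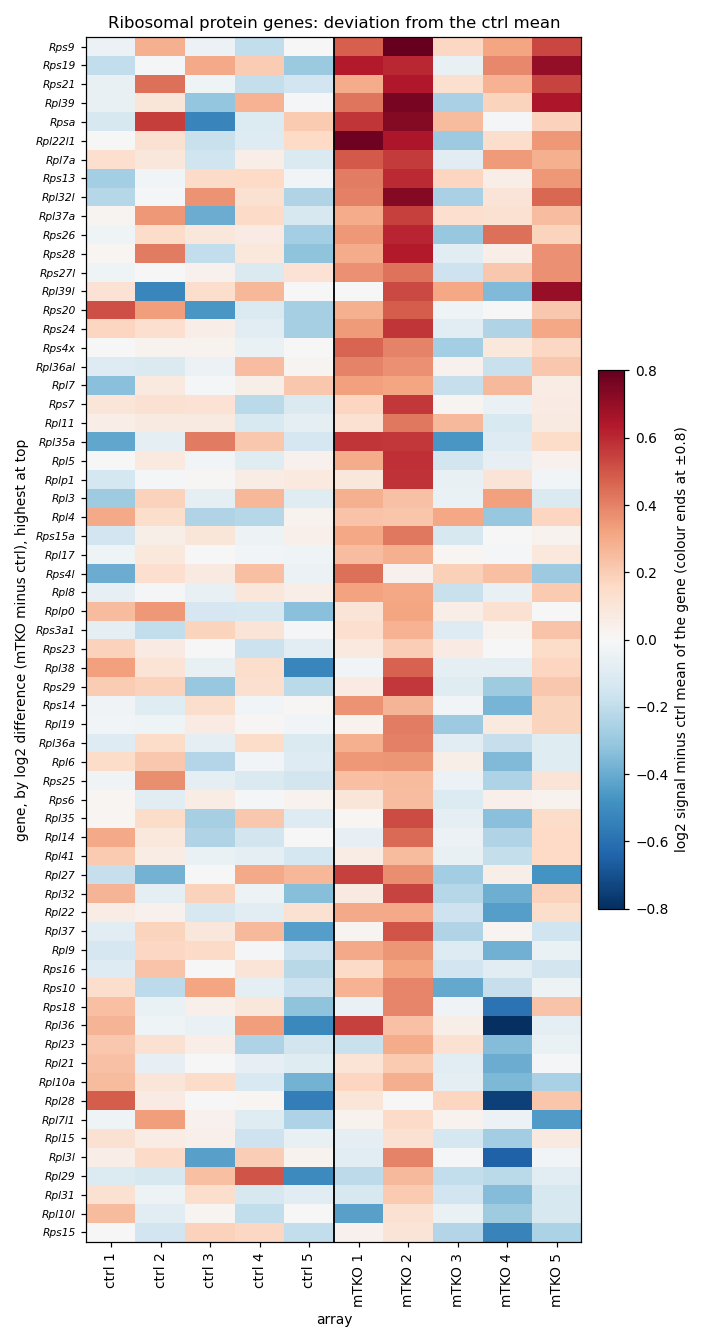
Deviation of each log2 signal from the mean of the ctrl arrays of the same gene (colour, ending at ±0.8) for 64 genes (vertical axis, by log2 difference) in 5 ctrl and 5 mTKO arrays (horizontal axis). In mTKO replicate 2, 63 of 64 genes are above their ctrl mean and mTKO replicate 4 has the lowest value of the gene in 20.

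The members varied together from mouse to mouse. After the mean of each genotype was taken off, the average correlation between 2 members over the 10 arrays was 0.42. It was 0.24 among 76 mitochondrial ribosomal protein genes, 0.089 among 45 ribosome assembly factors and 0.042 among 3677 named genes with a mean signal above 10. Without mTKO replicate 2 it was 0.25 among the members over the 9 other arrays. These are descriptions over the same 10 libraries, in which all genes share each array's RNA and scaling. The correlation of a member with the mean of the others had a median of 0.69 and was above 0.5 in 51 of 64 members. *Rps4l* had the lowest at -0.10, and *Rpl3* (0.20), *Rpl10l* (0.22), *Rpl7* (0.26), *Rpl39l* (0.29) and *Rpl27* (0.29) followed, where *Rps4l*, *Rpl10l*, *Rpl39l* and *Rpl27* are the dimmest 4 members. *Rpl5* (0.89) and *Rpl36a* (0.87) were among the highest.

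The shared movement was largest in mTKO replicate 2 and was not confined to mTKO arrays, since ctrl replicate 5 had the lowest mean of all. The mean deviation of the 64 members from their ctrl means was 0.03, 0.07, -0.01, 0.03 and -0.12 in ctrl replicates 1 to 5 and 0.22, 0.40, -0.07, -0.11 and 0.11 in mTKO replicates 1 to 5. Thus 3 mTKO arrays lay above every ctrl array, while mTKO replicates 3 and 4 lay below all but ctrl replicate 5. In mTKO replicate 2, 63 of 64 members were above their ctrl mean and 39 had their highest value of all arrays. Without that array, the median log2 difference fell from 0.105 to 0.03, with 37 of 64 members positive (57.8%, against 50.5% of all probe sets). By subunit, 19 of 24 small subunit genes (median 0.08) and 16 of 38 large subunit genes (median -0.02) were then positive. Without mTKO replicate 4 the median was 0.15, with 58 of 64 members positive.

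**Figure D3:**
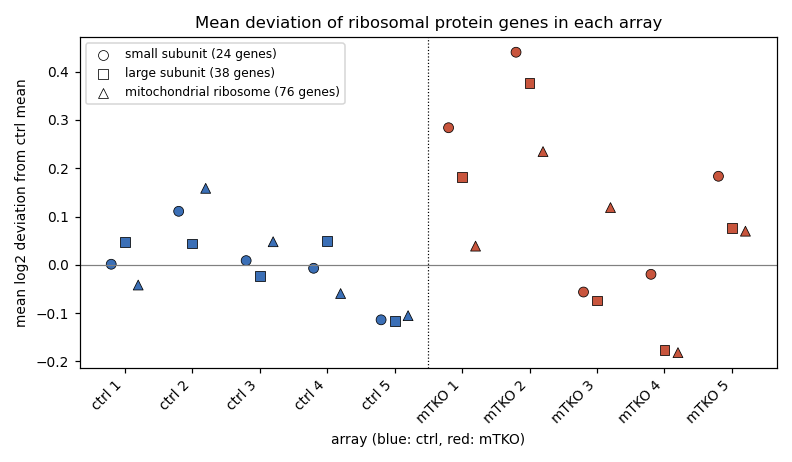
Mean log2 deviation from the ctrl mean (vertical axis) in each of the 5 ctrl (blue) and 5 mTKO (red) arrays for the 24 small subunit, 38 large subunit and 76 mitochondrial ribosomal protein genes. The small subunit mean reaches 0.44 in mTKO replicate 2 and is -0.06 and -0.02 in mTKO replicates 3 and 4, within the ctrl range of -0.11 to 0.11.

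The mean of the small subunit stood above that of the large subunit in every mTKO array, by most in mTKO replicate 4. The dimmer members also had a larger median difference than the brighter ones. Small subunit genes had a mean deviation of 0.28, 0.44, -0.06, -0.02 and 0.18 in mTKO replicates 1 to 5, and large subunit genes 0.18, 0.38, -0.07, -0.18 and 0.08. In ctrl replicates 1 to 5 the small subunit had 0.001, 0.11, 0.01, -0.01 and -0.11, and the large subunit 0.05, 0.04, -0.02, 0.05 and -0.12. The small subunit was thus the lower one in ctrl replicates 1 and 4. In mTKO replicates 2 and 3 the gap between subunits lay within the range of the ctrl arrays. The 32 dimmer members had a median log2 difference of 0.154 and 28 positive genes, and the 32 brighter members 0.06 and 23. The median over the 14 members with a mean signal from 10 to 12 was 0.25, over the 17 from 12 to 14 it was 0.12, over the 20 from 14 to 16 it was 0.04 and over the 8 from 16 to 18 it was 0.08. For all named genes in the same ranges it lay between -0.004 and 0.022. These ranges leave out the members below 10, *Rpl39l* (0.24), *Rpl36al* (0.17), *Rps4l* (0.12), *Rpl27* (0.04) and *Rpl10l* (-0.16). In ctrl replicate 1 the brighter members stood at 0.12 and the dimmer ones at -0.06, and in mTKO replicate 4 they stood at -0.22 and 0.00. The part of signal range in the difference between subunits was not tested.

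The first principal component of the 64 genes, computed on signals centred on the mean of all 10 arrays for each gene and so including the genotype difference, held 44.8% of the variance. It was led by mTKO replicate 2 (0.70), followed by ctrl replicate 5 (-0.37) and mTKO replicate 1 (0.35). All 64 members had a loading of the same sign. The second held 17.4% and set ctrl replicate 1 (0.63) against mTKO replicate 4 (-0.64), with *Rpl28* and *Rpl36* at one end and *Rpl7* and *Rps19* at the other.

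Striated muscle makes the large subunit protein uL3 from *Rpl3l* in addition to *Rpl3*, and the balance between both forms is the comparison particular to this tissue. *Rpl3l* had 14.71, 14.81, 14.22, 14.85 and 14.68 in ctrl and 14.57, 15.05, 14.64, 14.01 and 14.63 in mTKO. The means were 14.65 ± 0.25 and 14.58 ± 0.37 (SD, n = 5 each). Their difference of -0.07 had a 95% interval of -0.49 to 0.34 (limma adjusted p = 0.976). *Rpl3* had 11.39, 11.86, 11.60, 11.94 and 11.58 in ctrl and 11.96, 11.91, 11.62, 12.00 and 11.56 in mTKO. Here the means were 11.67 ± 0.22 and 11.81 ± 0.20 (SD, n = 5 each), and the difference of 0.14 had a 95% interval of -0.21 to 0.48 (limma adjusted p = 0.928). The groups overlapped for both genes, and the difference of neither was larger than the spread between mice.

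Within an array, the log2 signal of *Rpl3l* minus that of *Rpl3* was 3.32, 2.95, 2.62, 2.91 and 3.10 in ctrl and 2.61, 3.14, 3.02, 2.01 and 3.07 in mTKO. These values compare arrays, not the amounts of the 2 transcripts. The genotypes differed by -0.21 (exact permutation test, two-sided, p = 0.460), and 2 of 5 mTKO arrays were below the mean of ctrl. The lowest value was that of mTKO replicate 4, in which *Rpl3l* was at its lowest and *Rpl3* at its highest. Without this array the difference was -0.02.

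**Figure D4:**
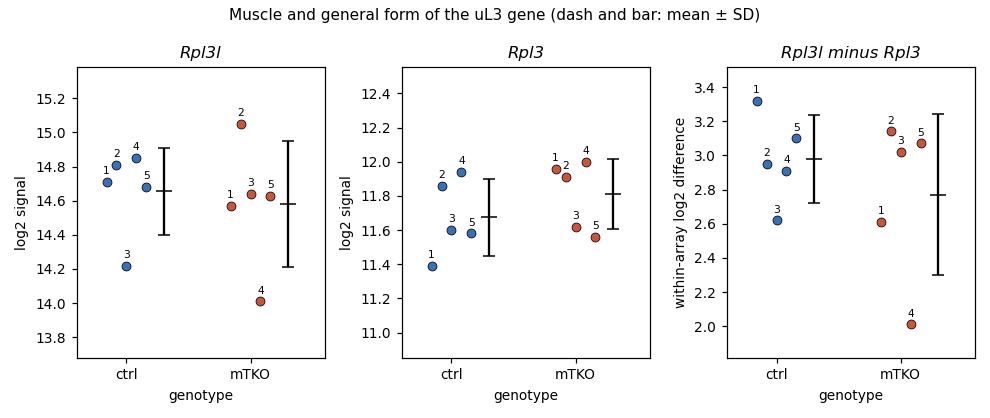
Log2 signal of *Rpl3l* and *Rpl3* and their difference within an array (vertical axes, each spanning the same width) in 5 ctrl (blue) and 5 mTKO (red) arrays, numbered by replicate, with the mean ± SD. The genotypes overlap in all panels, and mTKO replicate 4 has the lowest *Rpl3l* at 14.01 and the lowest difference at 2.01.

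Paralogues and tissue-restricted forms other than *Rpl3l* were set beside their partners, without a test of the within-array difference. *Rpl22l1*, whose protein can stand in for that of *Rpl22*, had 10.46, 10.58, 10.28, 10.36 and 10.62 in ctrl and 11.24, 11.11, 10.17, 10.60 and 10.81 in mTKO. The log2 difference was 0.33 (limma adjusted p = 0.840, standard error 0.19), against 0.03 for *Rpl22*. *Rpl22l1* minus *Rpl22* ran from -4.31 to -4.16 in ctrl and from -4.37 to -3.67 in mTKO, where mTKO replicate 3 lay below every ctrl array and the other 4 mTKO arrays above. *Rps27l*, a p53 target in human cells, had 10.86 to 11.09 in ctrl and 11.34, 11.41, 10.81, 11.19 and 11.34 in mTKO, with mTKO replicate 3 again the only one within or below the ctrl range. Its log2 difference was 0.24 (limma adjusted p = 0.852, standard error 0.15). *Rpl36al*, a copy of the X-linked *Rpl36a*, had 0.17, and *Rpl36a* itself 0.07. *Rpl7l1*, related to *Rpl7*, had -0.06, and *Rpl7* 0.16. Within an array, the genotypes differed by -0.21 in *Rpl7l1* minus *Rpl7* and by 0.10 in *Rpl36al* minus *Rpl36a*. For *Rpl39l* minus *Rpl39* it was -0.12 and for *Rps4l* minus *Rps4x* -0.04, beside 0.30 for *Rpl22l1* minus *Rpl22*. The dim copies *Rpl39l*, *Rps4l* and *Rpl10l* had log2 differences of 0.24, 0.12 and -0.16, with overlapping groups and mean signals between 5.05 and 7.08, near the median of all probe sets. Without paralogues and tissue-restricted forms, 46 of 56 genes were positive, with a median of 0.10. *Rpl32l* (0.29), by its symbol a copy of *Rpl32* (0.04), was not on the list of paralogues and was kept among these 56.

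Members with and without a pyrimidine run at the start covered nearly the same range of differences, from -0.11 to 0.47 and from -0.18 to 0.45. The 20 members with a run had a median log2 difference of 0.11 and 16 positive genes, and the 31 without had 0.10 and 25. *Rps9*, with the run TCTCTCTTT printed above, had the largest difference, while *Rps19*, without one, had nearly the same. The split rests on a run of at least 8 pyrimidines near the first start that RefSeq lists. It does not separate mRNAs with the TOP motif from those without. Members with CCGGAAG in the promoter had a median of 0.08 (21 genes) and those without one of 0.12 (30 genes).

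Among genes that work with the ribosome 0 passed the adjusted threshold, and the medians of their lists lay between 0.02 and 0.09. Of 45 ribosome assembly factors, 33 were on the positive side, the median was 0.07 and 0 passed the unadjusted threshold. *Tsr1*, needed for the late maturation of the small subunit, had 0.27 and *Dkc1*, the pseudouridine synthase of rRNA, -0.37 (adjusted p = 0.831 and 0.810 from limma). For RNA polymerase I and rDNA transcription, 10 of 15 genes were positive, with a median of 0.08. At an unadjusted p under 0.05, 2 were higher (3.1% of all probe sets), *Myc* (0.54) and *Taf1a* (0.53). Their mean signals of 7.06 and 6.83 were near the median of all probe sets, 6.07. The lowest of this list were *Znrd1* (-0.38) and *Ttf1* (-0.34), neither past the unadjusted threshold. *Myc*, an activator of ribosomal genes, had 6.55 to 7.05 in ctrl and 6.84 to 7.84 in mTKO (adjusted p = 0.726 from limma). Elongation factors and other mRNAs with the TOP motif had 14 of 17 positive and a median of 0.06. In this list *Nap1l1*, a histone chaperone gene, was the only one whose groups did not overlap, with 12.26, 12.43, 12.28, 12.56 and 12.35 in ctrl and 13.04, 12.59, 12.57, 12.64 and 12.86 in mTKO. Its log2 difference was 0.36 (limma adjusted p = 0.781, standard error 0.15), and *Eif4b*, an initiation factor, had 0.30.

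Of 9 genes that link mTOR to the ribosome, 5 were positive, with a median of 0.07, and *Eif4ebp1*, the translational repressor that mTOR inactivates, had the largest difference at 0.42 (adjusted p = 0.833 from limma). Of 8 p53 targets, 6 were positive, with a median of 0.09. The negative ones were *Phlda3* (-0.36) and *Mdm2* (-0.33), neither past the unadjusted threshold. *Cdkn1a*, the cell cycle inhibitor p21, had 9.25 to 10.42 in ctrl and 10.16 to 10.94 in mTKO, which is 0.83 higher in mTKO (limma adjusted p = 0.588, standard error 0.22). Mitochondrial ribosomal proteins had 41 of 76 positive and a median of 0.02, and *Mrps35* was the only one past the unadjusted threshold (0.31, adjusted p = 0.783 from limma). At that threshold 3.1% of all probe sets were higher and 3.26% lower. *Fau*, the remaining cytosolic ribosomal protein gene that could be read under its own symbol, averaged 11.86 ± 0.26 in ctrl mice and 11.80 ± 0.31 in mTKO mice (SD, n = 5 each), which is -0.06 on the log2 scale.

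**Figure D5:**
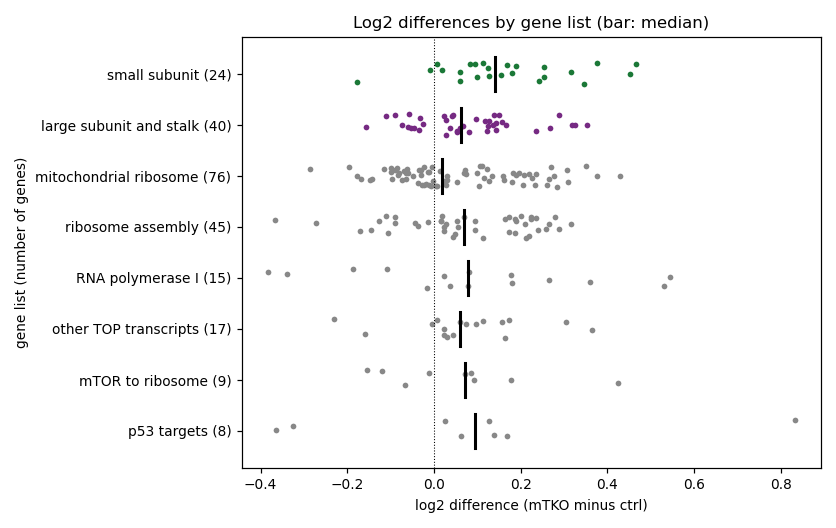
Log2 difference (mTKO minus ctrl, horizontal axis) of each gene in 8 lists (vertical axis), with a bar at the median. Medians are 0.14 for the small subunit, 0.06 for the large subunit and stalk, 0.02 for the mitochondrial ribosome and between 0.06 and 0.09 for the other lists.

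In other measures mTKO replicates 2 and 4 also left the ctrl range, and in some of these so did other mTKO arrays. *Mthfd2* was highest in mTKO replicate 2 (13.66, against 9.68 to 11.79 in the other mTKO arrays and 7.12 to 7.84 in ctrl) and lowest of the group in mTKO replicate 4 (9.68). Among cell type markers, the mean deviation in mTKO replicate 2 was 1.11 for 2 Schwann cell genes (-0.19 to 0.43 in ctrl), -0.94 for 4 slow fiber genes (-0.24 to 0.26 in ctrl) and -0.68 for 4 fibroblast genes (-0.25 to 0.34 in ctrl). In mTKO replicate 4 the fibroblast genes stood at 1.31 and 4 satellite cell genes at 0.60 (-0.20 to 0.24 in ctrl). This fibroblast mean came from *Col1a1*, *Col1a2* and *Col3a1*, while *Dcn* had 17.46 in that array, against a ctrl mean of 17.54. The slow fiber genes stood at 0.42 and 0.51 in mTKO replicates 3 and 4, and the fibroblast genes at -0.53 in mTKO replicate 5. The Schwann cell genes stood at -0.27, -0.42 and -0.45 in mTKO replicates 1, 3 and 5. All of these lay outside the ctrl range. The 4 adipocyte genes varied widely in both groups, from -0.84 to 1.33 in ctrl and from -1.25 (mTKO replicate 3) to 0.97 (mTKO replicate 2) in mTKO. The mean of 8 myofiber genes stayed between -0.06 and 0.04 in all arrays. Over all 44 markers, 21 had a positive, 22 a negative and 1 (*Col1a1*) no log2 difference, the median was -0.003, and the lowest log2 signal of a marker in any array was 3.16. The part of these differences between arrays in the levels of the ribosomal protein genes was not tested. Ribosomal protein genes have many processed copies in the mouse genome, and whether a probe set also reports such copies was not tested here.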

How the data were processed

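Per the labels and the methods, the authors computed the deposited log2 signals with SST-RMA in Affymetrix Expression Console 1.4, to 2 decimals. SST-RMA corrects the background and brings the arrays to a common distribution, which hides a change shared by all genes. Array medians lay between 6.06 and 6.14. No filter was applied, and precision is limited by the number of arrays. Of 22206 probe sets, 19572 have 1 gene symbol and 2634 are unnamed here. The brightest probe set stood for a gene (55 genes had several, none of them a member).

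All 5 ctrl and 5 mTKO arrays entered a linear model in limma 3.58.1 (R 4.3.3, lmFit and eBayes, prior degrees of freedom 7.53), with p-values adjusted by the Benjamini-Hochberg method across the 22206 probe sets at a threshold of 0.05. The steps were tested on simulated data. The within-array difference of *Rpl3l* and *Rpl3* had a two-sided exact permutation test. Plots were made in Python 3.11 with matplotlib 3.10.9. Promoter sequences are those of RefSeq for GRCm38.p6, matched by gene ID, none from chromosome 18.

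The members and lists were chosen with earlier results of these data known, so lists are described by counts and medians without a test. Named genes were *Txnrd2*, the forms of uL3, paralogues and their partners, stalk genes, *Rpsa*, *Rpl5*, *Rpl11*, *Rps6*, *Rps19*, *Rpl38*, *Fau*, the 6 members with the largest difference in each direction, the 4 brightest, the 4 dimmest and the 4 most variable, members whose groups do not overlap, and up to 4 genes of smallest p from each other list. Motifs and printed promoters were chosen with values known.

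Alternatives were the methods' t-test, eBayes with trend and robust, arrayWeights, centring on the median, quantile or cyclic loess normalization, a filter on dim probe sets, a replicate block, averaging the probe sets of a gene and leaving out each array.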

Additional observations from a re-analysis of the deposited data

Results flagged for a closer look

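In 6 of the 76 groups of 5 arrays examined (35 named members, *Txnrd2*, the mean of the 64 members and *Rpl3l* minus *Rpl3*, in each genotype), 1 array stood apart by more than 0.71 of the range of its group. Chance alone gives this in about 1 of 20 groups. *Rpl3l* had 14.22 in ctrl replicate 3, against 14.68 to 14.85 in the other ctrl arrays. *Rps21* had 13.25 in ctrl replicate 2, against 12.62 to 12.78. In mTKO replicate 2, *Rplp1* had 17.65, against 17.01 to 17.17 in the other mTKO arrays, and *Rpl29* had 12.81, against 12.33 to 12.46. In mTKO replicate 4, *Rpl4* had 16.41, against 16.88 to 17.02, and *Rpl28* had 13.75, against 14.49 to 14.72.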

How the results depend on the processing

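The count of ribosomal protein genes past the adjusted threshold was 0 under every alternative run, and their smallest adjusted p from limma or the methods' t-test lay between 0.461 and 0.905. At an unadjusted p under 0.05 the count was 3, with 1 to 9 when an array was left out (9 without mTKO replicate 3), 5 with the methods' t-test or the dim filter and 6 with trend and robust eBayes. In the main fit 3.1% of all probe sets were higher and 3.26% lower at this threshold. Shares of all probe sets under the other settings are not given here, so the counts are not read as a result about the members. The median log2 difference ranged from 0.03 (without mTKO replicate 2) to 0.15 (without mTKO replicate 4). With a replicate block the count was 0, 3 unadjusted, and *Rpl3l* minus *Rpl3* differed by -0.21 (p = 0.438, exact paired permutation). Arrays of the same number correlated at -0.04 to 0.16, so the numbers were not taken as pairs. *Txnrd2*, at -0.998 in each, passed with trend and robust eBayes (adjusted p = 0.0453 from limma) and with the dim filter (0.0322), and ranged from -1.06 to -0.91 when an array was left out. *Rpl3* ranged from 0.06 to 0.20 and *Rpl3l* minus *Rpl3* from -0.30 to -0.02.

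With an array left out, the sign of the log2 difference turned for *Rpl3l* (-0.19 to 0.0685, positive without mTKO replicate 4), *Rpl7l1* (-0.12 to 0.041), *Rpl22* (-0.0405 to 0.14), *Rpl36a* (-0.019 to 0.13), *Rpl38* (-0.034 to 0.18), *Fau* (-0.15 to 0.062), *Rpl29* (-0.22 to 0.0355), *Rpl27* (-0.0835 to 0.17), *Rpl21* (-0.0955 to 0.057), *Rpl28* (-0.19 to 0.12) and *Rpl36* (-0.17 to 0.19). Array weights turned *Rpl36* to 0.013. Of 314 results of named members under alternatives that keep all arrays, the other 313 kept their direction and their side of the threshold. The methods' t-test, trend and robust eBayes, the dim filter, the replicate block and averaging cannot change a member's log2 difference. Its direction could turn only with array weights, median centring, or quantile or cyclic loess normalization. The cause of the turns in sign was not tested.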
